A study of Ovis aries with 8 samples.

Results

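The genes described here are 10 endothelial and angiogenic genes in perirenal fat of lambs: the secreted growth factors VEGFA and ANGPT1, the receptor tyrosine kinases KDR, FLT1, TEK and TIE1, the endothelial adhesion molecules PECAM1 and CDH5, the haemostatic protein VWF, and the nitric oxide synthase NOS3. They were taken by symbol from the annotation of the array, which gave them 17 probe sets. They are 10 of the 9155 genes with a named probe set, and their 17 probe sets are among 24016 bovine probe sets measured. Where a gene had several probe sets, the brightest by its mean over all lambs stood for the gene and the dimmer ones served as a check.

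Endothelial cells line every blood and lymph vessel and hold together through cadherin and PECAM1 contacts. VEGFA made by the surrounding cells, adipocytes included, acts on KDR to make endothelial cells divide and migrate, while FLT1 binds VEGFA tightly and limits how much reaches KDR. ANGPT1, made mostly by the cells around the vessel, acts on TEK and keeps formed vessels stable, and TIE1 is the related receptor that modulates TEK.

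Fat was dissected from around the kidney (the perirenal depot) of 8 male, unweaned lambs of 12 weeks from a Dorset/Suffolk/Rambouillet cross. In 4 of them (NmatCpat, animals 1 to 4) the Callipyge mutation had been inherited from the sire alone, which gives the Callipyge phenotype of enlarged hindquarter muscles and leanness, and the other 4 (NmatNpat, animals 1 to 4) carried no mutant allele. Total RNA of each lamb was put on its own Affymetrix Bovine Genome array, so probes designed for cattle were read with sheep RNA, and a low value can mean a poor match as well as little transcript. The comparison of genotypes asks whether vessel genes of this fat depot differed between the lambs.

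The libraries were those of fat: ADIPOQ, the adipocyte hormone adiponectin, lay between 12.81 and 13.29 on the log2 intensity scale in the 8 lambs, and FABP4, the adipocyte fatty acid carrier, between 13.63 and 13.74. The array of NmatNpat animal 1 carried neuron transcripts, with the 10 neuron markers measured a mean 4.40 log2 units above their means over all lambs, and that of NmatCpat animal 4 carried muscle transcripts, with 10 muscle markers 1.24 units above. Of all 24016 probe sets, 943 passed an unadjusted P of at most 0.05 by limma with a fold change over 1.5, which is 3.93%, and 1118 passed that P alone. None passed a Benjamini-Hochberg adjusted p of 0.05, the smallest being 0.0850.

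None of the 10 genes passed the threshold of P and fold on its brightest probe set, where 2.91% of all 9155 genes did. At that P with no fold limit the count was also 0, beside 3.79% of genes. None separated the genotypes completely, where 2.84% of genes did. Of the 17 probe sets, 1 passed P and fold, a dimmer one of VEGFA and higher in NmatCpat, where 2.04% of all probe sets were higher and 1.88% lower. That probe set was also the only one past P alone, beside 4.66%, and none of the 17 separated the genotypes, beside 2.74%. The Benjamini-Hochberg adjusted p of the 17 probe sets by limma lay between 0.983 and 0.998. The difference, NmatCpat minus NmatNpat, was above 0 for 7 of the 10 genes, with a median of 0.16 on the log2 scale, beside 50.7% of all genes above 0 and a median of 0.00. In whole tissue, fewer vessel cells and less of a transcript per vessel cell cannot be told apart.

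**Figure D1:**
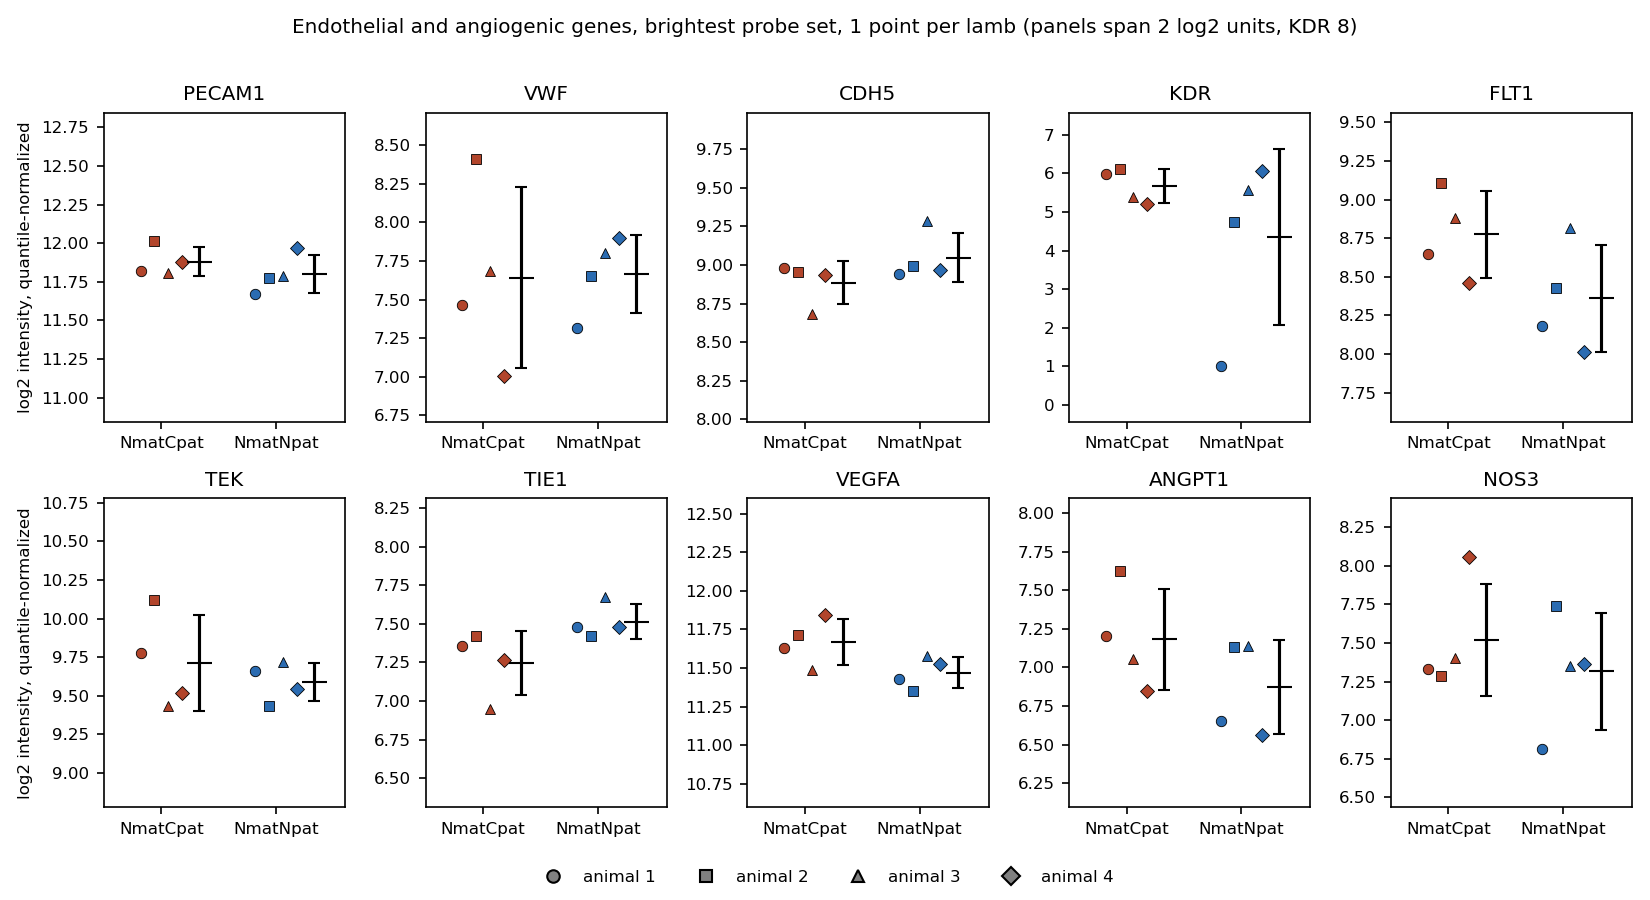
Log2 intensity (quantile-normalized) of the brightest probe set of each gene, 1 point per lamb with the animal number as the symbol, NmatCpat in red and NmatNpat in blue, and the mean with its SD beside each genotype. The genotypes overlap in all 10 panels, and the low KDR value of 1.02 belongs to NmatNpat animal 1.

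VEGFA, the main growth factor of blood vessels, was the gene with a probe set past P and fold, although its brightest probe set did not pass. On that probe set the NmatCpat lambs measured 11.63, 11.72, 11.49 and 11.85 on the log2 intensity scale, and the NmatNpat lambs 11.43, 11.35, 11.58 and 11.52. Animals 1, 2 and 4 of NmatCpat lay above every NmatNpat lamb, and animal 3 lay within their range. The means were 11.67 ± 0.15 and 11.47 ± 0.10 (SD, n = 4 each). The log2 difference was 0.20, with a 95% interval of -0.16 to 0.56 (two-sided exact permutation p = 0.0857). It was 0.13 without both arrays that carried other tissue, and 0.40 with the mean of the VEGFA probe sets.

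The dimmer VEGFA probe set is the one that passed P and fold. Its values were 8.95, 8.36, 8.58 and 8.98 in NmatCpat and 7.91, 8.40, 8.09 and 8.06 in NmatNpat. The ranges met only through NmatNpat animal 2, whose 8.40 was above the 8.36 of NmatCpat animal 2. The log2 difference was 0.60, or 1.52-fold, with a 95% interval of 1.09 to 2.12-fold. Its unadjusted P by limma was 0.0198, its adjusted p 0.983 and its two-sided exact permutation p 0.0571, where 4 against 4 lambs can reach 0.0286. The call sat on the edge of the fold threshold, and its P did not always hold either. It was lost without NmatCpat animal 1 (log2 difference 0.52) or animal 4 (0.52), without NmatNpat animal 1 (0.53) or animal 4 (0.58), and without both arrays that carried other tissue (0.45). Without NmatCpat animal 1 the unadjusted P by limma was 0.0535. With the animal number as a block that P was 0.0638, at an unchanged difference of 0.60. The probe set was called under 9 of 16 alternatives, the difference being above 0 in every one of them. Of these, the other variance models, the filter on dim probe sets and the animal number as a block could not change the difference itself. The values of the VEGFA probe sets correlated with r = 0.57 over the 8 arrays, a description of how alike they ran.

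ANGPT1, the stabilising ligand of TEK, had 1 probe set. It measured 7.20, 7.62, 7.05 and 6.85 in NmatCpat and 6.66, 7.13, 7.14 and 6.56 in NmatNpat. NmatCpat animal 2 was the highest lamb and NmatNpat animals 1 and 4 the lowest, with the rest mixed between 6.85 and 7.20. NmatCpat minus NmatNpat came to 0.31 on the log2 scale, with a 95% interval of -0.24 to 0.86 (exact permutation p = 0.229). Without NmatCpat animal 2 it was 0.16.

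KDR, the receptor through which VEGFA drives endothelial growth, had the largest difference of the 10 and the least certain. Its brightest probe set measured 5.99, 6.10, 5.38 and 5.21 in NmatCpat and 1.02, 4.74, 5.57 and 6.05 in NmatNpat. The NmatNpat range held all NmatCpat values but the highest, and the spread came from NmatNpat animal 1, whose deposited intensity was 2.1 where the other 7 lambs lay between 26.7 and 67.4. The log2 difference of 1.33 had a 95% interval of -1.04 to 3.69 (exact permutation p = 0.343), and without NmatNpat animal 1 it was 0.22. The mean level of 5.01 was below the median of 5.99 over all probe sets, and adding 16 to every intensity before the log brought the difference to 0.59. NmatNpat animal 1 is also the lamb with neuron transcripts, whose part in this value was not tested. In that lamb KDR deviated by -3.99 from its mean over all lambs, and the other 9 genes by -0.60 (NOS3) to 0.10 (TIE1). A second KDR probe set was dimmer still, between 0.63 and 4.51 in the 8 lambs, with a difference of -0.40.

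FLT1, which holds VEGFA away from KDR, measured 8.65, 9.11, 8.88 and 8.46 in NmatCpat and 8.18, 8.43, 8.82 and 8.01 in NmatNpat on its brightest probe set. Every NmatCpat lamb lay above animals 1, 2 and 4 of NmatNpat, and NmatNpat animal 3 lay above NmatCpat animals 1 and 4. The log2 difference was 0.41, or 1.33-fold, with a 95% interval of -0.13 to 0.96 (exact permutation p = 0.114). The direction belonged to that probe set: the other FLT1 probe sets gave -0.21 and -0.26, and the mean of all of them -0.02. Their correlations with the brightest over the 8 arrays were -0.12 and -0.37.

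TEK, the angiopoietin receptor also called TIE2, measured 9.78, 10.12, 9.43 and 9.51 in NmatCpat and 9.66, 9.44, 9.72 and 9.54 in NmatNpat. The NmatNpat lambs sat inside the NmatCpat range, and NmatCpat animal 2 was the highest. The genotype means differed by 0.12 on the log2 scale, with a 95% interval of -0.33 to 0.58 (exact permutation p = 0.543), and it was -0.01 without NmatCpat animal 2.

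TIE1, the partner of TEK, had a difference below 0. It measured 7.36, 7.42, 6.95 and 7.26 in NmatCpat and 7.48, 7.42, 7.68 and 7.48 in NmatNpat. NmatNpat animal 2 and NmatCpat animal 2 were level at 7.42, and all other NmatNpat lambs were above all NmatCpat lambs. NmatCpat minus NmatNpat was -0.27 on the log2 scale, with a 95% interval of -0.66 to 0.12 (exact permutation p = 0.0571). That difference was below 0 under all 17 alternatives, the smallest being -0.17 without NmatCpat animal 3. Several of the 17 could not change it: the other variance models, the animal number as a block and the filter on dim probe sets. Nor could the mean of all probe sets, since TIE1 had only the brightest.

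Among the junction proteins, PECAM1 was bright and varied little between lambs. It measured 11.82, 12.01, 11.81 and 11.88 in NmatCpat and 11.67, 11.77, 11.79 and 11.97 in NmatNpat. The genotypes were interleaved, and all 8 lambs lay within 0.34 log2 units. A log2 difference of 0.08 came with a 95% interval of 0.832 to 1.34-fold (exact permutation p = 0.343). Dropping NmatCpat animal 2 left 0.03 and dropping NmatNpat animal 1 left 0.04. The dimmer PECAM1 probe set gave 0.07.

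CDH5, the cadherin of endothelial junctions, measured 8.98, 8.95, 8.68 and 8.93 in NmatCpat and 8.94, 9.00, 9.29 and 8.97 in NmatNpat. Animals 3 of the 2 genotypes were the extremes in opposite directions and the other 6 lambs lay between 8.93 and 9.00. The NmatCpat mean minus the NmatNpat mean was -0.16 (log2), with a 95% interval of -0.54 to 0.21 (exact permutation p = 0.171). The second CDH5 probe set gave 0.25, with an interval of -0.22 to 0.71, so the sign was not settled. On the brightest probe set dropping animal 3 of NmatCpat left -0.09 and dropping animal 3 of NmatNpat left -0.08.

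VWF, the clotting protein that endothelial cells and platelets store, measured 7.47, 8.41, 7.68 and 7.01 in NmatCpat and 7.32, 7.65, 7.80 and 7.90 in NmatNpat. The NmatCpat lambs held both the highest and the lowest value. Between the genotype means the log2 difference was -0.03, with a 95% interval of -0.74 to 0.69 (exact permutation p = 0.971), and its sign turned with single lambs. The pooled SD within genotypes was 0.45, beside a median of 0.27 over the 500 probe sets nearest in level. The second VWF probe set had a mean of only 2.19.

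NOS3, which makes nitric oxide in endothelium and so relaxes the vessel wall, measured 7.33, 7.28, 7.40 and 8.06 in NmatCpat and 6.81, 7.74, 7.35 and 7.36 in NmatNpat. NmatCpat animal 4 was the highest and NmatNpat animal 1 the lowest, and the other 6 lambs were mixed. The log2 difference was 0.20, with a 95% interval of -0.41 to 0.81 (exact permutation p = 0.486). Those extremes are the lambs whose arrays carried muscle and neuron transcripts, whose part in these values was not tested. The difference was 0.02 when NmatCpat animal 4 was dropped, 0.04 for NmatNpat animal 1 and -0.14 for both.

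**Figure D2:**
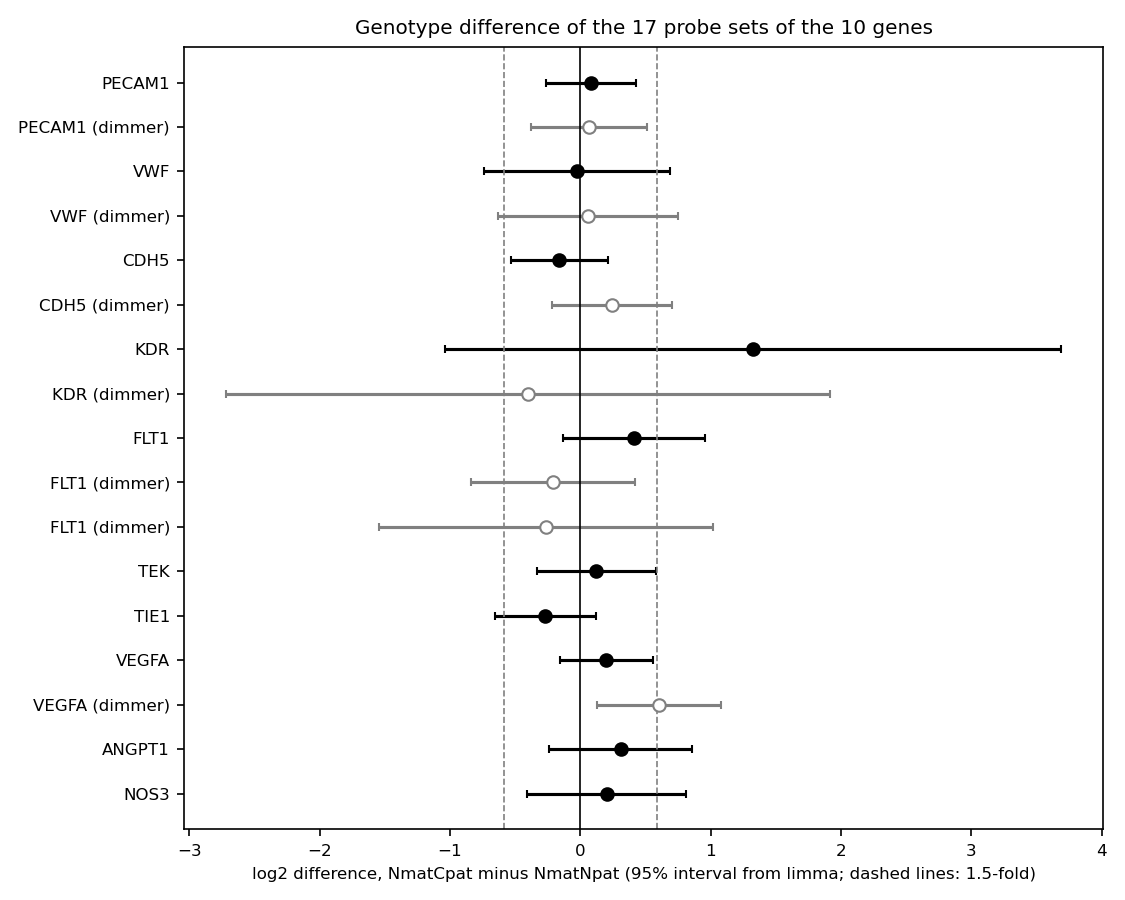
Log2 difference, NmatCpat minus NmatNpat, of the 17 probe sets with the 95% interval from limma, filled points for the brightest probe set of a gene and open points for dimmer ones, dashed lines at a fold of 1.5. The interval of the dimmer VEGFA probe set, 0.12 to 1.08, is the only one that leaves out 0, and the KDR intervals are the widest.

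The intervals say how large a difference these arrays could have missed. On the brightest probe sets, the 95% interval of 9 of the 10 genes lay within a 2-fold change in either direction, KDR being the exception, beside 62.9% of all 9155 genes. Among the dimmer probe sets, those of VEGFA (up to 2.12-fold), KDR and the dimmest of FLT1 (0.343 to 2.03-fold) reached beyond it. Of the 6 genes with several probe sets, 4 had probe sets that differed in sign (VWF, CDH5, KDR and FLT1) and 2 did not (PECAM1 and VEGFA).

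Both genotypes held lambs with high and with low values. NmatCpat animal 2 was the highest lamb for 6 of the 10 genes, and its mean deviation from the gene means was 0.37. NmatNpat animal 1 had the lowest mean deviation, -0.59, and was lowest for 3 genes. Much of that mean was KDR: over the other 9 genes the mean deviation was -0.21 in NmatNpat animal 1 and 0.29 in NmatCpat animal 2. The other 6 lambs had mean deviations between -0.04 and 0.16, with both genotypes among them.

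**Figure D3:**
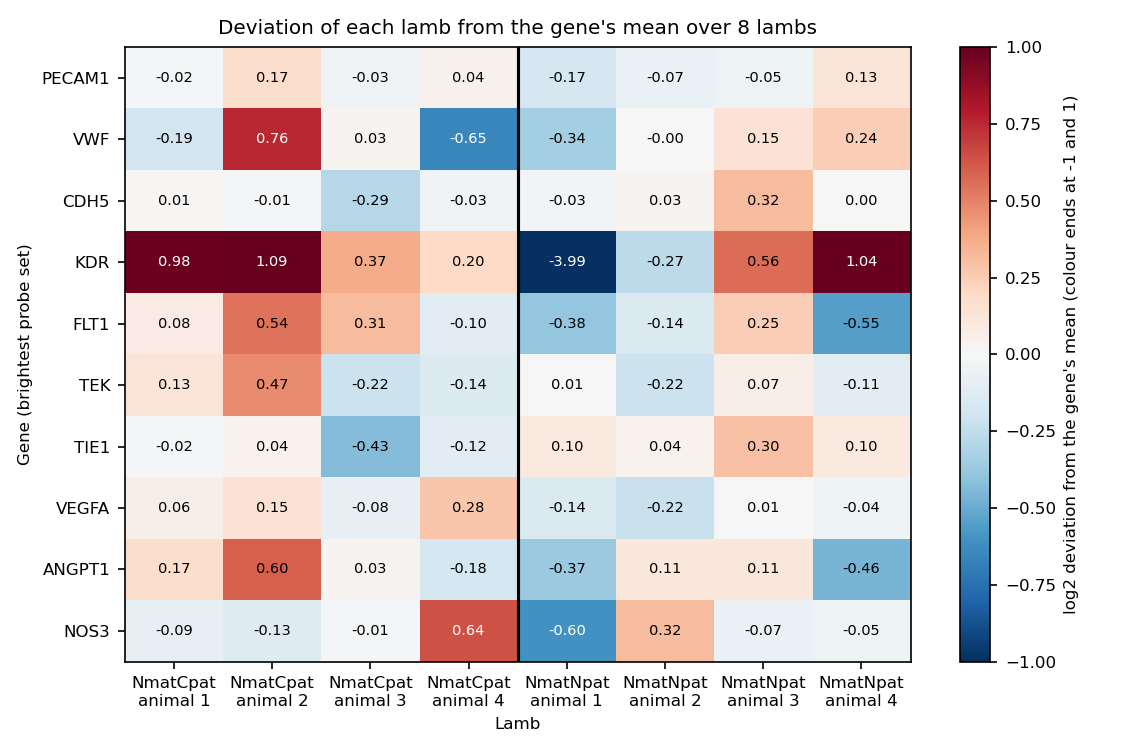
Deviation of each lamb from the mean of each gene over the 8 lambs, in log2 units, NmatCpat to the left of the black line and NmatNpat to the right, red above and blue below the mean. NmatCpat animal 2 is above the mean for 8 of 10 genes, and the deepest blue cell is KDR in NmatNpat animal 1.

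Whether the 10 genes varied together was asked over the 45 pairs of genes, by Pearson r and Spearman rho with exact permutation p over all pairings of the 8 lambs. The median r was 0.29, 33 pairs were above 0, and no pair passed the Benjamini-Hochberg adjustment. That median fell to 0.10 when NmatCpat animal 2 was dropped and to 0.13 for NmatNpat animal 1. Only 3 pairs had an unadjusted exact p for r of at most 0.05, and 5 for rho. FLT1 and ANGPT1 had r = 0.90 (exact permutation p = 0.00347, adjusted 0.156) and rho = 0.79 (exact permutation p = 0.0279, adjusted 0.413). Without the lambs farthest from the FLT1 median, NmatCpat animal 2 and NmatNpat animal 4, r was 0.71. With the mean of all probe sets of each gene in place of the brightest, however, r was -0.21.

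PECAM1 and KDR had r = 0.74 (exact permutation p = 0.0154, adjusted 0.283) and rho = 0.83 (exact permutation p = 0.0154, adjusted 0.413), and r was 0.84 without the 2 lambs farthest from the PECAM1 median. CDH5 and TIE1 had r = 0.91 (exact permutation p = 0.0188, adjusted 0.283) and rho = 0.62 (exact permutation p = 0.115, adjusted 0.805). That relation rested on animals 3 of the 2 genotypes, since r was 0.27 without them. The lowest r was that of TEK and NOS3, -0.40 (exact permutation p = 0.309, adjusted 0.730), with rho = -0.76 (exact permutation p = 0.0368, adjusted 0.413) and r = -0.55 without NmatCpat animals 1 and 2.

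**Figure D4:**
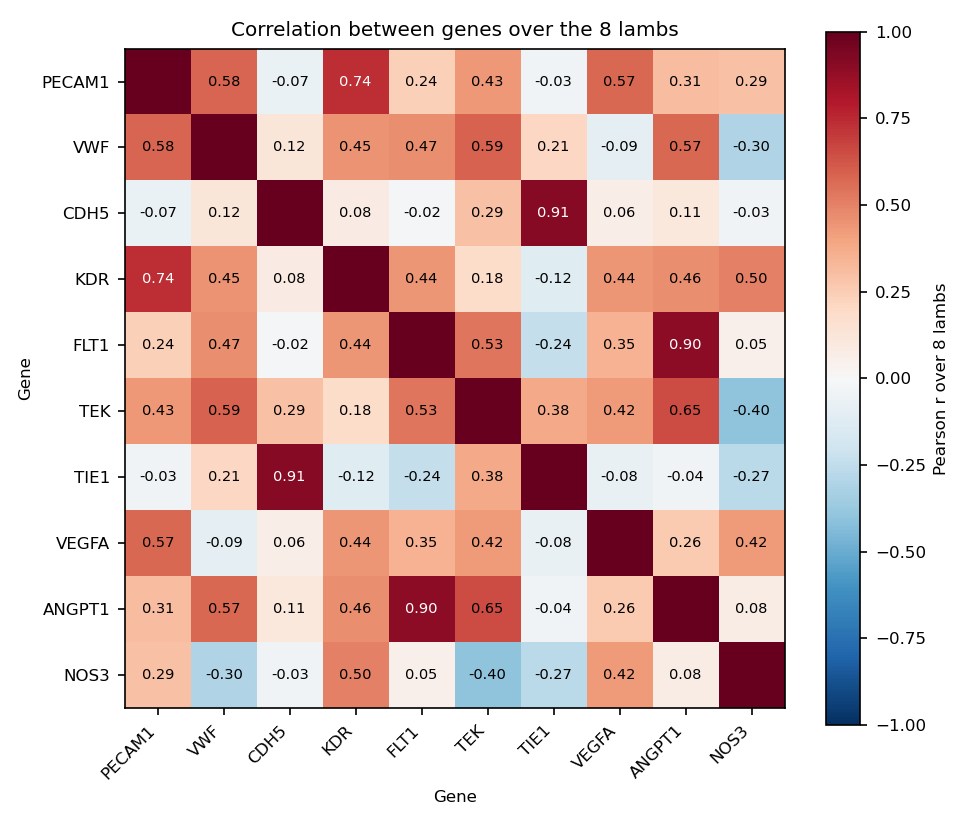
Pearson r between the brightest probe sets of each pair of genes over the 8 lambs, red for positive and blue for negative values. Off the diagonal, the darkest cells are CDH5 with TIE1 (0.91) and FLT1 with ANGPT1 (0.90), and r ran from -0.40 to 0.91 over the 45 pairs.

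The genes whose pattern over the 8 arrays was most like each member were sought among 6333 named genes brighter than the median probe set, and the 2 nearest are given here as a description. For VEGFA they were WC1.3 (r = 0.95) and ENG (r = 0.94), the endothelial co-receptor of TGF-beta signalling called endoglin. For FLT1 they were TMEM100 (r = 0.95) and DCAF15 (r = 0.93), and for ANGPT1 TMEM43 (r = 0.99) and PHYKPL (r = 0.96). CDH5 was followed by PLEKHO1 (r = 0.96) and then by TIE1 itself (r = 0.91), whose own nearest were TRAPPC9 (r = 0.99) and BUD31 (r = 0.95). The nearest of PECAM1 were ADAM12 (r = 0.97) and MKKS (r = 0.93), of VWF PLCG1 (r = 0.95) and PALB2 (r = 0.95), and of TEK APCDD1 (r = 0.94) and ZBTB16 (r = 0.93). KDR was followed by FES (r = 0.97) and ROM1 (r = 0.96), and NOS3 by MCM5 (r = 0.98) and CDK12 (r = 0.97). The best of 6333 correlations over 8 arrays is high by selection alone, and among these 20 nearest genes 2, TIE1 and ENG, were on a vascular list.

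Other vessel genes were taken from 7 lists holding 111 genes, of which 83 were measured. HGF was called higher in NmatCpat and no gene was called lower, beside 1.39% and 1.52% of all genes, and 49 of the 83 had a difference above 0, with a median of 0.06. HGF, the hepatocyte growth factor that also acts on endothelium, measured 4.79, 3.96, 4.52 and 1.83 in NmatCpat and 0.50, 2.07, 0.23 and 3.69 in NmatNpat. NmatCpat animal 4 and NmatNpat animal 4 crossed over between the genotypes, and the other 6 lambs were separated. Between genotypes the log2 difference was 2.15, with a 95% interval of 0.02 to 4.28 (exact permutation p = 0.0857; limma's adjusted p = 0.983). The mean level was 2.70, far under the median of all probe sets, and the difference was 0.65 with 16 added before the log. HGF was not called without NmatCpat animal 1 (1.81), 2 (2.09) or 3 (1.90), nor without NmatNpat animal 1 (1.77), 2 (2.30) or 3 (1.69). MET, the receptor of HGF, had a difference of 0.36 (exact permutation p = 0.171), a value named after it was seen.

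Of 28 other endothelial genes measured, 22 had a difference above 0, with a median of 0.12, and none was called. SELP, the P-selectin that captures leukocytes, had the smallest p: it measured 6.09, 6.56, 6.44 and 6.41 in the NmatCpat lambs and 5.76, 5.86, 6.14 and 5.71 in NmatNpat. Only NmatCpat animal 1 and NmatNpat animal 3 overlapped. The log2 difference was 0.51, or 1.42-fold (exact permutation p = 0.0571; limma's adjusted p = 0.983), under the fold threshold. Dropping NmatCpat animal 1 (0.60) or NmatNpat animal 3 (0.60) made it pass. It lost even an unadjusted P of 0.05 by limma when NmatCpat animal 2 (0.44) or 3 (0.48) was dropped, when NmatNpat animal 1 (0.47) or 4 (0.45) was, and without both arrays that carried other tissue (0.46). The count above 0 moved with the lambs left out. Of the 28, 16 were above 0 without NmatNpat animal 1, and 15 without it and NmatCpat animal 4. The count was 20 without NmatCpat animal 4 alone or NmatCpat animal 2 alone, and 26 without NmatNpat animal 3. The cause was not tested.

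The VEGF family and co-receptors had 3 of 7 genes above 0 and none called. VEGFB, a relative of VEGFA that binds FLT1, had the smallest p there, measuring 10.15, 10.66, 10.17 and 9.61 in the NmatCpat lambs and 10.79, 10.84, 10.63 and 10.45 in NmatNpat. NmatCpat animal 2 alone lay inside the NmatNpat range, and the log2 difference was -0.53 (exact permutation p = 0.0857). Without NmatCpat animal 2 it was -0.70 and passed P and fold, without NmatCpat animal 4 it was -0.35, and without both arrays that carried other tissue it was -0.31; the last 2 did not pass. All 4 measured genes of the angiopoietin family other than ANGPT1 had differences below 0, with a median of -0.29 and none called. ANGPT2, the context-dependent antagonist of ANGPT1, had the smallest p of these, at -0.35 (exact permutation p = 0.229).

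No gene was called among 6 genes of oxygen sensing, 11 inhibitors of angiogenesis or 10 of nitric oxide and cGMP signalling. Their medians were -0.05, 0.11 and -0.01. EPAS1, the hypoxia-inducible factor abundant in endothelium, had the smallest p of the first list, at 0.30 (exact permutation p = 0.0571). SPRY2, a feedback inhibitor of growth factor receptors, had that of the second, at 0.35 (exact permutation p = 0.0857). GCH1, which makes the cofactor of nitric oxide synthases, had that of the third, at 1.16 (exact permutation p = 0.114), where NmatNpat animal 3 at 2.61 was far below the other 7 lambs, which lay between 4.64 and 6.15. The 17 other angiogenic factors and receptors, HGF included, had a median of 0.03.

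**Figure D5:**
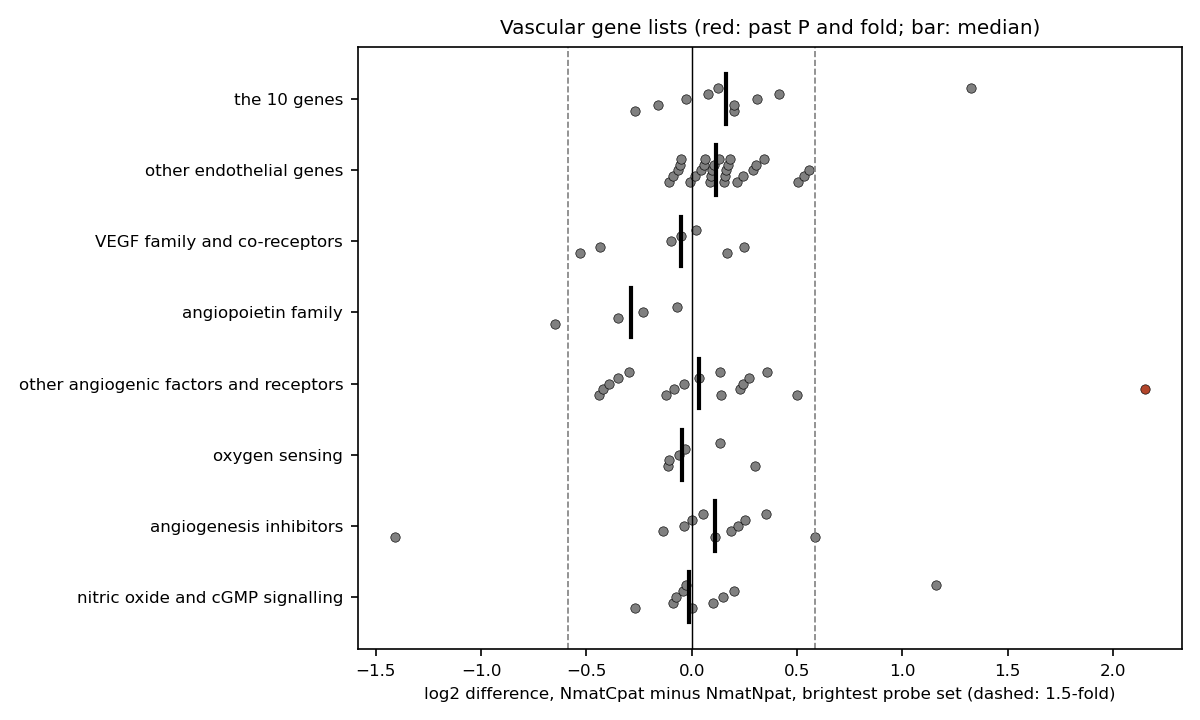
Log2 difference, NmatCpat minus NmatNpat, of each measured gene (brightest probe set) in the 10 genes and the 7 vascular lists, with black bars at the medians, dashed lines at a fold of 1.5 and red for a gene past P and fold. HGF at 2.15 is the only red point, and the medians lie between -0.29 and 0.16.

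Cells that lie on vessels or in blood were followed by their markers. Of 9 mural cell markers, for the contractile cells around vessels, 8 were above 0 with a median of 0.30 and none was called. CSPG4, the NG2 proteoglycan of pericytes, had the smallest p, at 0.49 (exact permutation p = 0.0857). The mean level of that list lay between 8.22 and 9.35 in the NmatCpat lambs and between 7.90 and 9.34 in the NmatNpat lambs. Of 5 lymphatic endothelial markers none was called, and CCL21, the chemokine of lymphatic vessels, had the smallest p, at 0.52 (exact permutation p = 0.0857). The red cell list was the only marker list with calls: 2 of 6 were called higher in NmatCpat, beside 1.39% of all genes, AHSP at 2.22 (exact permutation p = 0.0286) and HBM at 0.90 (exact permutation p = 0.0857), while HBA at -0.34 and HBB at 0.32 were not. The mean of the red cell list lay between 4.73 and 5.11 in NmatCpat and between 4.01 and 4.52 in NmatNpat. AHSP and HBM, the genes called, enter that mean with the largest differences. Over the 6 genes the median difference was 0.25, with 4 above 0 and 2 below. That list was dim: its median level was 4.60, beside 5.99 over all probe sets, and 1 of the 6 genes was above that median. Its part in the values of the vessel genes was not tested. Of 8 platelet markers only PF4 and ITGA2B were measured, at 0.89 and 0.40, neither called. HBA, HBB, PF4 and ITGA2B were named after their values were seen. No gene was called among 6 adipocyte, 8 macrophage, 4 kidney, 6 adrenal, 10 neuron or 10 muscle markers.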

How the data were processed

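Perirenal fat RNA of 8 lambs, 4 NmatCpat and 4 NmatNpat, was hybridised to 8 Affymetrix Bovine Genome arrays. The deposited values are intensity values on a linear scale that the authors made with MAS5, as named in the submitters' processing notes, with its version not given in the sources used here. The study's methods describe quantile normalization, but the deposited columns did not share quantiles (medians of 65.3 to 72.6), so log2 values of all 24128 probe sets were quantile-normalized here. The 112 control probe sets were then dropped and lmFit and eBayes of limma (3.58.1; R 4.3.3) run on the other 24016 without covariates, with Benjamini-Hochberg adjustment over all of them. A probe set was called at P of at most 0.05 with a fold over 1.5, the thresholds the study used. Its methods do not name the statistic.

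Each single value also has an exact permutation p (two-sided), taken over all 70 ways to split the lambs into 4 and 4, the smallest p being 0.0286. Intervals are 95% intervals from limma, and 8 arrays limit their precision. Each array is of 1 lamb, and each number given per lamb has no error of its own.

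Symbols came from the platform annotation: 13292 of the 24016 probe sets had 1 symbol, 86 had several and were not used, and 10638 had none. All 10 genes are named in sheep assembly ARS-UI_Ramb_v3.0, used for names only. The genes, lists and tests were chosen with earlier results of these data known. Named genes were all 10 with every probe set, in each list the genes called or the one with the smallest p, and for each of the 10 the 2 genes with the highest r, and the few outside this rule are marked as such where they are named. The fit was tested on simulated data before use. Of 50 probe sets with a simulated 1.5-fold change, 19 passed P and fold and 0 the adjusted p. Of 50 with a 2-fold change, 37 and 5 did. Of 50 with a 4-fold change, 45 and 28 did, and of 50 with an 8-fold change, 49 and 34. Among the probe sets simulated without a change, 952 passed P and fold and 10 the adjusted p. Alternatives were other variance models, median centring, cyclic loess, an offset of 16, a filter on dim probe sets, the animal number as a block, lambs left out, the mean of all probe sets and P alone. Probe, promoter and protein sequences were not used here, so the planned promoter motif counts were not run.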

Additional observations from a re-analysis of the deposited data

Results flagged for a closer look

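Among 34 groups of 4 lambs, 1 for each of the 17 probe sets and each genotype, a lamb stood apart from the other 3 of its genotype in 4, where the gap to the nearest lamb took more of the group's range than the critical value of Dixon's test at 95%. Chance sets apart about 1 in 20 groups. CDH5 did so in both genotypes on its brightest probe set: NmatCpat animal 3 was lowest at 8.68, with the nearest lamb at 8.93, and NmatNpat animal 3 was highest at 9.29, with the nearest at 9.00. NOS3 was highest in NmatCpat animal 4 at 8.06, with the nearest lamb at 7.40. The dimmer PECAM1 probe set was lowest in NmatNpat animal 1 at 10.18, with the nearest at 10.67, and in its brightest probe set the same lamb was also the lowest of its genotype, at 11.67.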

How the results depend on the processing

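None of the 10 genes passed under any of 18 alternatives. Of these, 1 took the mean of all probe sets in place of the brightest, and 1 dropped the fold limit in the main fit only. The filter on dim probe sets left KDR out. Under the fold threshold, VEGFA had an unadjusted P by limma of 0.0239 with the mean of its probe sets (0.40). FLT1 had 0.0410 by limma without NmatNpat animal 3 (0.57). The median difference of the 10 genes stayed above 0, between 0.09 and 0.23, though the other variance models and the block could not change it. Over all probe sets, 943 calls became 626 without moderated variances, 1124 with the animal number as a block, and 980 to 1054 with a lamb left out. With dim probe sets filtered out there were 244, among the smaller set of probe sets above the median level. The count at an adjusted p under 0.05 went from 0 to 1 with a trended robust variance, with the offset of 16 and above the median level, and lay between 0 and 2 with a lamb left out. The vascular count of 1, which was HGF, was 0 without moderated variances. It was also 0 above the median level, where the filter left HGF out. The count lay between 0 and 2 with a lamb left out, and the gene counted was then not always HGF.

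With a lamb left out, differences ranged from -0.0644 to 0.14 for the dimmer PECAM1 probe set, from -0.28 to 0.19 for VWF, from -0.15 to 0.18 for its dimmer probe set, from -1.15 to 0.15 for the dimmer KDR probe set, from -0.65 to 0.13 for the dimmest FLT1 probe set and from -0.0134 to 0.22 for TEK, so none of these has a settled direction. Without NmatNpat animal 1 and NmatCpat animal 4, the sign turned for the dimmer PECAM1 probe set (-0.0802), VWF (0.0703), the second FLT1 probe set (0.0402) and NOS3 (-0.14). The mean of all probe sets turned VWF (0.0170), CDH5 (0.0419), FLT1 (-0.0191) and the correlation of FLT1 with ANGPT1 (-0.21). The causes were not tested.

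Whether the animal numbers pair the lambs could not be told from these arrays. Deviations from the genotype means correlated between -0.01 and 0.05 for lambs with the same number. Among the 4 lambs of the other genotype, however, 5 of 8 lambs correlated best with their own number. With the animal number as a block the vascular count was 0, the dimmer VEGFA probe set, at 0.60, and HGF, at 2.15, no longer passed, and none of the 10 genes passed. Probe sets as dim as those of KDR and HGF, and the bovine probes read with sheep RNA, limit what can be said of those genes.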
